A study of Mus musculus with 4 samples.

Results

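The response of mouse gastrocnemius, a calf muscle, to streptozotocin (STZ) was compared between wild-type (WT) mice and knockouts without KLF15, a transcription factor, in their skeletal muscle (KO). For each gene, the STZ effect was the log2 intensity under STZ minus that under vehicle, and its genotype dependence was the STZ effect in KO minus the STZ effect in WT, called the difference below. A negative difference means that STZ moved the gene lower, or less high, in KO than in WT. All 4 arrays of the series entered every difference, with 1 array for each of the 4 groups (WT vehicle, WT STZ, KO vehicle and KO STZ). Of 22180 genes read by a probe set of their own (a transcript cluster), 13258 were bright enough to be used. The difference reached 2-fold, which is 1 on the log2 scale, in 51 of them.

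Per the labels, STZ mice received 5 daily intraperitoneal doses of 50 mg/kg, vehicle mice received the sodium citrate buffer alone (50 mM, pH 4.5), and muscle was removed 3 weeks later. Both KO groups share the deletion of KLF15, which is confined to skeletal muscle by design, so other cells of the tissue keep the gene. The promoter that drives the deletion, the strain, age and sex of the animals, and how many animals were pooled on an array are not given in the labels. With 1 array per group no difference has a replicate check and no test was run. Higher and lower therefore describe single arrays, and the number of arrays limits the precision.

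STZ kills pancreatic beta cells, the source of insulin, and mice treated with it become short of insulin and hyperglycaemic. Muscle short of insulin burns more fatty acids, breaks down protein and is exposed to more glucocorticoid. KLF15, a zinc-finger factor of the Kruppel-like family, is induced by glucocorticoids and is known in muscle for driving genes of amino acid breakdown and fatty acid use.

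Klf15 itself was read by 1 cluster, with an intensity of 50.5 and 72.1 in WT (vehicle, then STZ) and 19.8 and 16.0 in KO. Both KO arrays were below both WT arrays, and the STZ effect was 0.48 in WT and -0.25 in KO. The labels do not say which exons were deleted, so it is unknown if this cluster falls within them. All 10 skeletal muscle markers were above the level filter, and their summed intensity ran from 52802 to 55148 over the 4 arrays. Of 4 sex markers, Xist was below the filter and the Y-linked Eif2s3y lay between 87.1 and 103 on the 4 arrays, so the arrays did not differ in this respect. Neutrophil and T cell markers were below the filter in 7 of 8 cases. In whole muscle, fewer cells of a type and less RNA per cell cannot be told apart.

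Few genes responded to STZ alike in both genotypes. Of the 13258 genes, 359 (2.71%) changed by at least 1.5-fold (0.58 on the log2 scale) in WT, in KO or in both. They were divided by what the other genotype did, with less than 1.2-fold (0.26) taken as no response. WT-only responses were found in 151 genes (1.14% of all), 115 of them higher with STZ (0.867%) and 36 lower (0.272%). KO-only responses were found in 87 genes (0.656%), 32 higher (0.241%) and 55 lower (0.415%). Opposite responses were found in 49 genes (0.37%), of which 34 were higher in WT and lower in KO (0.256%) and 15 the reverse (0.113%). The remaining 72 genes (0.543%) moved the same way in both, 42 higher (0.317%) and 30 lower (0.226%). With quantile normalization of the arrays the split between higher and lower calls shifted by over 10 percentage points, to 73 against 38 for WT only, and to 26 against 19 for genes higher in WT and lower in KO against the reverse.

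The median responder of a genotype was near no change in the other, with members on both sides. The 169 genes higher with STZ in WT (1.27%) had a median effect of 0.69 there and 0.01 in KO, and 53.3% of them were above 0 in KO, against 42.8% of all genes. In KO 31 of them were at least 1.2-fold higher, 23 as much lower and 115 in between. The 59 genes higher in KO (0.445%) had a median of 0.67 there and 0.05 in WT, and 61.0% of them were above 0 in WT, against 51.5% of all genes. The 87 genes lower in KO (0.656%) had medians of -0.68 and -0.04, and the 59 genes lower in WT (0.445%) had medians of -0.67 and -0.08. Over all 13258 genes the STZ effects of the genotypes, which share no array, had a Pearson r of 0.056 and a Spearman rho of 0.046. When genes were split by level into 4 equal groups, r was 0.28 in the brightest and -0.01 in the dimmest. These are correlations across genes, which are not independent replicates, and they are given as a description. At least 2-fold in WT and under 1.2-fold in KO were 9 genes (0.0679%), and the reverse held for 3 (0.0226%). Only 11 genes (0.083%) passed 1.5-fold the same way in both genotypes, and 4 (0.0302%) passed it in opposite directions.

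**Figure D1:**
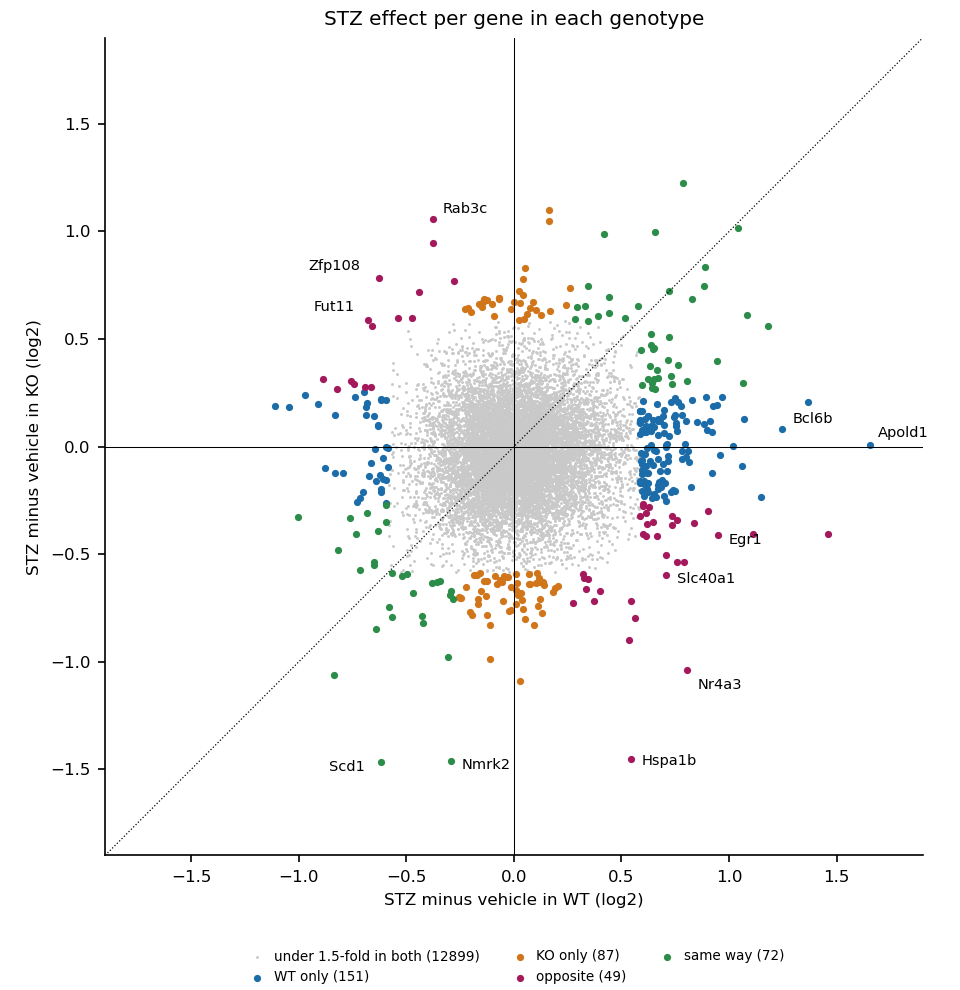
STZ effect of each of 13258 genes in WT (horizontal) and KO (vertical), both in log2 units from 1 array per group; colours mark the 4 response classes with their numbers of genes, and the dotted line marks equal effects. The 151 WT-only genes lie along the horizontal axis, most of them on the right (115 higher), while the 34 opposite genes at the lower right include Hspa1b, Nr4a3 and Slc40a1.

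The difference was at or below -1 in 33 genes (0.249%) and at or above 1 in 18 (0.136%). At 1.5-fold it was negative in 519 genes (3.91%) and positive in 233 (1.76%), so 31.0% of these calls were positive, against 43.9% after quantile normalization. The median difference over all genes was -0.05, and it went from 0.04 in the dimmest of 4 equal groups of genes to -0.11 in the brightest. The 95th percentile of intensity was highest in WT STZ (207) and lowest in KO STZ (179), and the part of this gap in the differences of bright genes was not tested. Just inside the threshold were Dnajb1 (-1.006) and Prdm8 (-1.002) on the negative side and Mir540 (1.03) and Polr2l (1.04) on the positive side. Just outside were Pck1 (-0.997) and Gm5523 (-0.996), and 1700088E04Rik and Gm19792 (both 0.98).

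The most negative difference was that of Hspa1b, an inducible HSP70 chaperone that refolds damaged proteins. Its intensity was 44.6 and 66.8 in WT (vehicle, then STZ) and 54.9 and 17.8 in KO. KO STZ was thus the low array, the STZ effect was 0.55 in WT and -1.45 in KO, and the difference was -2.00. Hspa1a, a neighbouring gene for a nearly identical protein, had 46.0, 50.2, 29.3 and 20.7 in the same order, with effects of 0.11 in WT and -0.43 in KO. Probes for such close copies can cross-hybridize, so their separate values are uncertain. Their promoters are shown because the genes are near copies that nonetheless gave different effects. They are the 250 bases before the transcription start in RefSeq on GRCm38.p6, minus strand, at chr17:34959239-34959488 for Hspa1b and chr17:34972157-34972406 for Hspa1a. Capitals mark the letters GAANNTTC, the core of a heat shock element, which are the same on both strands.
Hspa1b: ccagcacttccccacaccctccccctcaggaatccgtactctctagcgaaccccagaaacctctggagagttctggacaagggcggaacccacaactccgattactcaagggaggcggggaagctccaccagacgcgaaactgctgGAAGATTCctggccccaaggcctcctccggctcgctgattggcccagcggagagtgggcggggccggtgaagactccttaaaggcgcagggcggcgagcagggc
Hspa1a: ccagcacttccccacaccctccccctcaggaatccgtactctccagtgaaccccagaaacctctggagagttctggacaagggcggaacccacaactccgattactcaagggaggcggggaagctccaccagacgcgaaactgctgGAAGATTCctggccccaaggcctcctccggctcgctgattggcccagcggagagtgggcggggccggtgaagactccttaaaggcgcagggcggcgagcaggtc
The windows were identical at 247 of 250 bases (98.8%), and the match began 104 bases before the start in both. Of 32851 promoter windows of the same length, 6.69% held these letters, and of the 13111 windows of genes above the level filter, 4.93%. A match is a description of the letters and not a measured binding site.

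Heat shock chaperones, which hold or refold other proteins, were lower with STZ in KO in 17 of the 18 measured, and their difference was below 0 in 17. Over all genes 57.0% were lower in KO and 57.1% had a difference below 0. Their median effect was 0.06 in WT, which turned to -0.0047 after quantile normalization, and -0.23 in KO, with a median difference of -0.21. Dnajb1, a cofactor that delivers clients to HSP70, had 17.3 and 28.1 in WT (vehicle, then STZ) and 15.8 and 11.03 in KO. It was highest in WT STZ and lowest in KO STZ, like Hspa1b. The other members were under 1.5-fold in both genotypes, among them Cryab, a small chaperone of the sarcomere (0.08 in WT and -0.25 in KO), and Hspe1, a mitochondrial co-chaperonin (0.21 and -0.22).

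Immediate early genes, which encode regulators switched on within minutes of a stimulus, included 3 of the 33 genes at or below -1. These were 3 of 28 measured, against 0.249% of all genes. Nr4a3, an orphan nuclear receptor induced in muscle by cAMP and exercise, had 16.2 and 31.1 in WT (vehicle, then STZ) and 33.8 and 14.5 in KO. WT STZ and KO vehicle were the high arrays, so the effects of 0.80 in WT and -1.04 in KO came with vehicle levels that already differed. Apold1, an early gene of the vascular endothelium, had 12.1 and 46.0 in WT (vehicle, then STZ) and 11.05 and 11.1 in KO. Only WT STZ stood apart, and the effect of 1.65 in WT against 0.01 in KO was the largest STZ effect of any gene tested in WT. Egr1, a zinc-finger factor induced by growth signals, had 28.1, 57.7, 14.7 and 10.1 in the same order of arrays. Both KO arrays were below both WT arrays, and the effects were 0.95 in WT and -0.41 in KO.

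The Nr4a3 promoter is shown because the gene had the largest opposite response that passed 1.5-fold in both genotypes. The window is chr4:48045055-48045304, plus strand, the 250 bases before the RefSeq start on GRCm38.p6. Capitals mark TGACG on either strand, the core of the cAMP response element.
Nr4a3: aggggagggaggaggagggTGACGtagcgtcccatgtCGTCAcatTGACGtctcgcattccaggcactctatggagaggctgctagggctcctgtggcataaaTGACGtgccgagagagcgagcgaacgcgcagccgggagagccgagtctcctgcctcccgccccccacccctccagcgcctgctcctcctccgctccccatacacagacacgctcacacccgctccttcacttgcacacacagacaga
It held 4 matches, beginning 231, 213, 205 and 147 bases before the start. At least 1 match was found in 17.8% of the 32851 windows and 4 or more in 0.137%, and among the 13111 windows of genes above the level filter the shares were 25.1% and 0.275%. No binding was measured in these data.

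The list of immediate early genes was otherwise mixed. Of 28 measured, 6 had a difference of 1.5-fold or more to the negative side and 0 to the positive side, against 3.91% and 1.76% of all genes, and the median was 0.22 in WT, 0.02 in KO and -0.17 for the difference. The WT-only higher class held 4 of the 28, Apold1, Btg2, Ccn1 and Klf4, against 0.867% of all genes. Btg2, an antiproliferative early gene, had 28.1, 51.6, 24.4 and 24.6 in WT vehicle, WT STZ, KO vehicle and KO STZ. Ccn1, a secreted matrix protein, had 93.4, 165, 87.4 and 95.1. In both genes WT STZ alone was high. Fos and Junb, classical members of the same list, were not among the responders, with effects of -0.04 and 0.24 in WT and of 0.16 and 0.26 in KO. With the level filter raised to percentile 75 the list's median difference was -0.46.

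**Figure D2:**
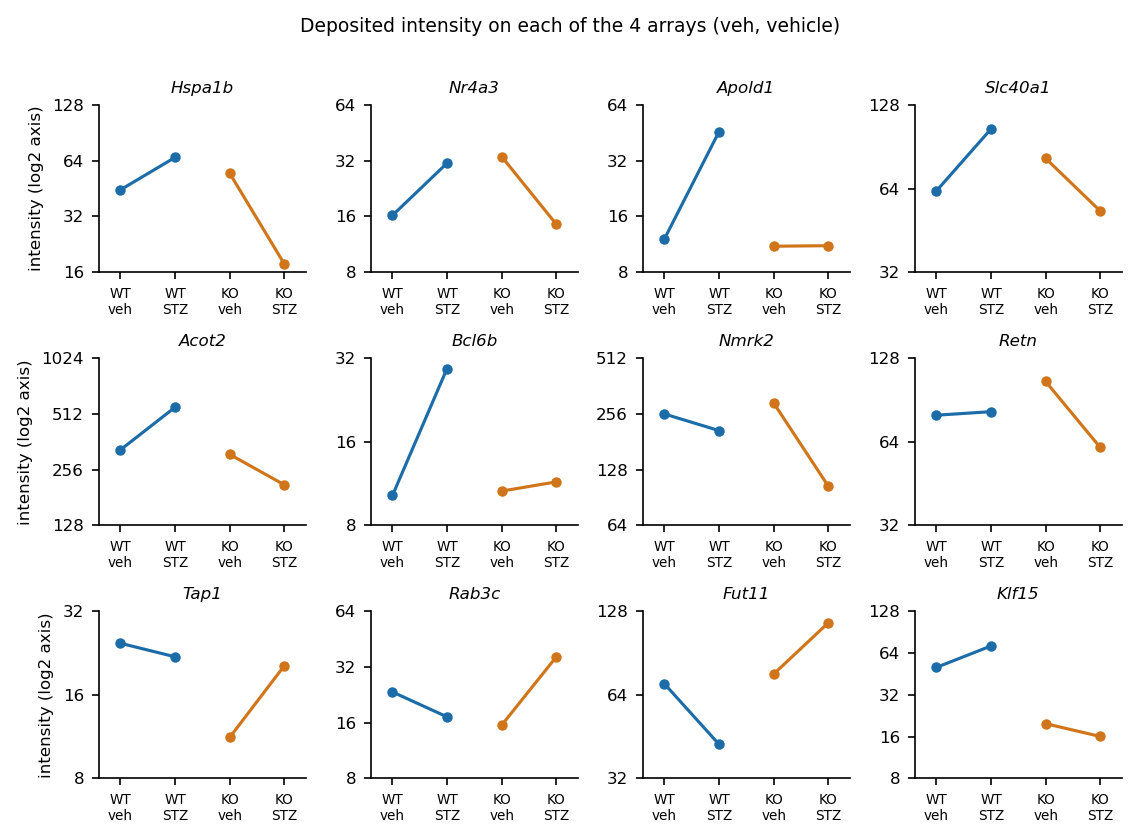
Deposited intensity (log2 axis, arbitrary units) of 12 genes on the WT vehicle, WT STZ, KO vehicle and KO STZ arrays, 1 point per array, with lines joining vehicle to STZ within a genotype. Apold1 and Bcl6b stand out on the WT STZ array alone (46.0 and 29.4), Hspa1b and Nmrk2 on the KO STZ array alone (17.8 and 104), and Nr4a3 has like levels in WT STZ and KO vehicle.

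Genes of fatty acid oxidation were on balance higher with STZ in WT and lower in KO. Of 30 measured, 24 were above 0 in WT and 22 below 0 in KO, and 17 (56.7%) were both, against 28.6% of all genes. The difference was below 0 in 29 of 30, against 57.1% of all genes, and the exception was Eci2, an isomerase for unsaturated fatty acids. The median difference was -0.27, against -0.05 for all genes and -0.11 for the brightest of 4 equal groups of genes. For this list it was -0.17 after quantile normalization and -0.21 after removal of a loess trend. The median STZ effect was 0.17 in WT and -0.18 in KO, where all genes had 0.01 and -0.03. In either genotype 4 of the 30 passed 1.5-fold, a larger share than the 2.71% of all genes.

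Acot2, a mitochondrial thioesterase that frees fatty acids from coenzyme A, had 328 and 556 in WT (vehicle, then STZ) and 309 and 212 in KO. The vehicle arrays were close, and the STZ arrays lay on either side of them, giving effects of 0.76 in WT and -0.54 in KO. Acadl, the long-chain acyl-CoA dehydrogenase, had 593, 904, 569 and 504 in the same order, and was a WT-only response (0.61 against -0.17). Slc25a20, the carnitine-acylcarnitine carrier of the mitochondrial membrane, had 138, 217, 125 and 133, again high in WT STZ alone. Cd36, a fatty acid uptake protein, and Pdk4, a kinase that shuts glucose carbon out of the citric acid cycle, had opposite signs below 1.5-fold. Cd36 had 556, 816, 684 and 543, with effects of 0.55 and -0.33. Pdk4 had 1401, 1677, 1514 and 1066, with effects of 0.26 and -0.50. Ppargc1a, a coactivator of oxidative genes, was lower with STZ in both genotypes (-0.30 in WT and -0.69 in KO).

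Genes of slow, oxidative fibres had a median STZ effect of 0.12 in WT and -0.19 in KO over 16 measured, and 6 had a difference of 1.5-fold or more to the negative side, against 3.91% of all genes. Csrp3, a Z-disc protein that senses stretch, had 169 and 308 in WT (vehicle, then STZ) and 278 and 301 in KO. Here WT vehicle was the low array, and KO vehicle was already near the STZ levels. Myoz2, a calcineurin-binding Z-disc protein, had 355, 573, 532 and 467, with WT vehicle again the lowest. Tnni1, the slow troponin I, had 50.9, 80.3, 35.2 and 29.9, with both KO arrays below both WT arrays. The 15 fast fibre genes had medians of -0.03 in WT and -0.0036 in KO. In either genotype 0 of them reached 1.5-fold, against 2.71% of all genes. The sign of the KO median turned to 0.02 after quantile normalization.

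Several other lists of muscle metabolism had few or no members past 1.5-fold, which only 2.71% of all genes passed in either genotype. Amino acid catabolism, which holds known KLF15 targets, had 0 of 28 members past it in either genotype, and its median was 0.03 in WT and -0.12 in KO, with the WT sign turning to -0.06 after quantile normalization. Bcat2, which starts the breakdown of branched-chain amino acids, had 53.4 and 71.4 in WT (vehicle, then STZ) and 32.8 and 32.4 in KO. It was lower on both KO arrays, with an STZ effect of 0.40 in WT and -0.02 in KO. Of 23 ubiquitin ligases and regulators of muscle atrophy, Cebpd alone passed 1.5-fold, as a WT-only response (0.69 against 0.14). The median of that list was 0.03 in WT, turning to -0.02 after quantile normalization, and -0.16 in KO. The ligases Fbxo32 and Trim63, which tag muscle proteins for destruction, had 542, 696, 529.5 and 427, and 303, 400.045, 395 and 345, in the order WT vehicle, WT STZ, KO vehicle and KO STZ. Their effects were 0.36 and 0.40 in WT and -0.31 and -0.19 in KO. None of 19 genes of insulin signalling passed 1.5-fold, and their medians were -0.16 in WT and -0.12 in KO, with a difference of -0.08 that turned to 0.07 after quantile normalization. Igf1, a growth factor that muscle makes for itself, had 53.5, 36.0, 49.9 and 49.3, low in WT STZ alone.

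Antioxidant genes had a median effect of 0.16 in WT and -0.09 in KO over 17 measured. Nqo1, a quinone reductase, had 92.1 and 148 in WT (vehicle, then STZ) and 89.1 and 87.8 in KO, so WT STZ stood apart. Hmox1, which degrades haem, had 12.5, 17.9, 16.2 and 11.4, with effects of 0.41 and -0.40. Slc40a1, the iron exporter ferroportin, had 62.9, 105, 82.3 and 53.2. It passed 1.5-fold in both genotypes in opposite directions (0.71 and -0.60), with WT STZ the highest array and KO STZ the lowest.

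Glucocorticoid-responsive genes had a median STZ effect of 0.19 in WT and 0.10 in KO, with a median difference of -0.16. Of 19 measured, 4 were at least 1.5-fold higher in WT (Mt2, Cebpd, Errfi1 and Cdkn1a) and 0 in KO, against 1.27% and 0.445% of all genes, and the difference of every member was under 1.5-fold. Mt2, a metal-binding metallothionein, had 85.5 and 148 in WT (vehicle, then STZ) and 125 and 163 in KO, higher with STZ in both genotypes. Errfi1, a feedback inhibitor of the EGF receptor, had 79.9, 135, 63.9 and 74.4, and was a WT-only response (0.73 against 0.21).

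Most listed interferon-induced and antigen-presentation genes were higher with STZ in both genotypes. Of 23 measured, 21 were above 0 in WT and 20 in KO, against 51.5% and 42.8% of all genes, with medians of 0.20 and 0.23, and the median difference of -0.02 turned to 0.06 after quantile normalization. Iigp1, an interferon-induced GTPase, had 23.9 and 53.0 in WT (vehicle, then STZ) and 16.0 and 36.1 in KO, with effects of 1.04 and 1.01. Gm4841, an interferon-inducible GTPase-like gene outside this list, was lower with STZ in WT, with effects of -1.11 in WT and 0.19 in KO. Tap1, a subunit of the transporter that loads peptides for antigen presentation, was a KO-only response. It had 24.6, 21.9, 11.2 and 20.3, so KO vehicle was the low array. Ifit2, an interferon-induced RNA-binding protein, had 5.89, 6.23, 4.95 and 11.7, with KO STZ alone high.

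Of 18 lipid synthesis genes measured, 2 passed 1.5-fold, Fasn and Scd1, both lower with STZ in both genotypes, and the list had medians of -0.06 in WT and -0.15 in KO. Fasn, the fatty acid synthase, had 70.1 and 37.6 in WT (vehicle, then STZ) and 70.9 and 32.0 in KO, with effects of -0.84 and -1.06. Scd1, the desaturase that makes monounsaturated fatty acids, had 291, 188, 396 and 141, with effects of -0.62 and -1.47. Sqle, an enzyme of cholesterol synthesis, went opposite ways below 1.5-fold (-0.38 and 0.45), with 10.1, 6.87, 5.96 and 9.49. Nmrk2, a muscle kinase that makes the NAD precursor nicotinamide mononucleotide, had 256, 208, 294 and 104. Its fall of 0.29 in WT against 1.46 in KO left KO STZ the low array, and its difference of -1.17 was the most negative among genes that moved the same way. The other 9 NAD synthesis genes were under 1.5-fold in both genotypes.

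The KO-only class held more lower than higher genes, 55 against 32, and 49 against 42 after quantile normalization. The lower ones included 2 fat cell genes. Retn, the fat cell hormone resistin, had 79.8 and 82.2 in WT (vehicle, then STZ) and 106 and 61.1 in KO. Plin1, which coats the fat droplet of adipocytes, had 20.3, 22.7, 23.0 and 13.4. Adipoq, the hormone adiponectin, had 14.8, 17.5, 18.9 and 12.1, under 1.5-fold. In all of these KO STZ was the low array. Of 11 adipocyte markers measured, 9 were below 0 in KO and 9 above 0 in WT, against 57.0% and 51.5% of all genes, with medians of -0.51 and 0.12. The median difference of -0.61 was the most negative of the lists, and it was -0.49 after quantile normalization. That median of -0.61 was the value of Fabp4, a gene that is also in the list of endothelial markers. The summed intensity of the 13 matched adipocyte markers was 6721 and 7244 in WT (vehicle, then STZ) and 6931 and 6648 in KO, most of it from Car3, which skeletal muscle also makes and which had effects of 0.05 and 0.04. Lep and Ucp1 were below the level filter. The part of fat cells in the other results was not tested.

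Other lower KO-only genes with the largest differences were 1700066C05Rik (14.6, 14.9, 23.9 and 9.28 in WT vehicle, WT STZ, KO vehicle and KO STZ), Ptx3, a soluble pattern receptor (11.6, 12.6, 21.8 and 10.7), and Syt12, a synaptotagmin (10.9, 9.82, 23.5 and 10.03). In Ptx3 and Syt12 it was KO vehicle that stood apart, and KO STZ was at the WT level. Ntn1, a guidance cue, had 24.0, 24.9, 27.8 and 14.4, with KO STZ the low array. Among higher KO-only genes, Katna1, which severs microtubules, had 34.1, 38.6, 22.5 and 50.5. Vmn1r20, a vomeronasal receptor gene, had 2.72, 3.49, 6.90 and 19.0, below the level filter's intensity of 5.81 on both WT arrays.

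Markers of blood vessels were mixed. Of 18 endothelial markers, 11 were above 0 in WT and 11 below 0 in KO, against 51.5% and 57.0% of all genes, and 7 were both. They had a median of 0.12 in WT and -0.23 in KO over 18 measured, and smooth muscle markers 0.11 and -0.21 over 10. Bcl6b, an endothelial repressor, had 10.2 and 29.4 in WT (vehicle, then STZ) and 10.6 and 11.5 in KO, with WT STZ alone high. Flt1, a VEGF receptor, had 58.6, 63.8, 87.1 and 65.5, with KO vehicle the high array. Sox17, an endothelial transcription factor, and Smtn, a smooth muscle protein, went the other way, with effects of -0.36 and -0.45 in WT and 0.23 and 0.28 in KO. The summed intensity of endothelial markers was 2011 and 2294 in WT (vehicle, then STZ) and 2170 and 1898 in KO. Without Fabp4, which fat cells also make, it was 1077, 1100, 1258 and 1135, so the order of the arrays rested on that gene. Smooth muscle markers summed to 4417 in KO STZ and 4926 in WT STZ, their lowest and highest arrays. That list shares Des and Notch3 with the myogenic list, and the part of each gene in the sum was not tested. Thbs1, a matrix protein of vessels and platelets that blocks angiogenesis, had 17.7, 27.9, 39.3 and 21.1, with KO vehicle the high array. Fhl5, a LIM-domain coactivator of CREB-family factors, had 21.97, 33.5, 28.8 and 13.7, with KO STZ the low one. The part of vessel cells in these values was not tested. Macrophage markers were above 0 on balance in both genotypes (0.15 and 0.20 over 12 measured). The difference was below 0 in 6 of the 12, near the 57.1% of all genes. Ctss, a lysosomal protease, was a WT-only response with 21.6, 40.7, 27.1 and 25.6. Cd163 and Mrc1 of the same list went the other way, with effects of -0.14 and -0.21 in WT and 0.40 and 0.22 in KO.

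The remaining lists had few members past 1.5-fold in the difference, which 3.91% of all genes passed to the negative side and 1.76% to the positive side. Glycolysis and glycogen genes had a median STZ effect of -0.06 in WT and -0.13 in KO over 21 measured, with a median difference of -0.01 that turned to 0.11 after quantile normalization. In that list Fbp2, the muscle fructose bisphosphatase, had 188 and 267 in WT (vehicle, then STZ) and 140.4 and 119 in KO. The 24 proteasome subunits had 0.08 and 0.01, with a difference of -0.06 that turned to 0.07. The 16 clock genes had 0.03 and -0.06 with a difference of -0.08, and after quantile normalization all of these turned sign (-0.03, 0.01 and 0.05). Cry1, a clock repressor, was low in WT STZ and KO alike, with 33.4 and 22.2 in WT and 19.8 and 22.9 in KO. Myogenic and satellite cell genes had 0.06 and -0.09 over 13 measured, and 17 extracellular matrix genes had -0.08 and -0.02, the KO sign turning to 0.04 after quantile normalization. Fibroblast markers had 0.18 and 0.06 over 9 measured, with a difference of -0.10 that turned to 0.03, and the 9 tendon markers had 0.20 and 0.04 with a difference of -0.31. Tnmd, the tendon membrane protein tenomodulin, had 20.7 and 32.5 in WT and 31.9 and 32.9 in KO, with WT vehicle the low array. The difference was below 0 in 7 of the 9 tendon markers, against 57.1% of all genes. Scx, another of them, went the other way, with effects of -0.30 in WT and 0.31 in KO. Summed over tendon markers, intensity was 552 and 628 in WT and 731 and 729 in KO.

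**Figure D3:**
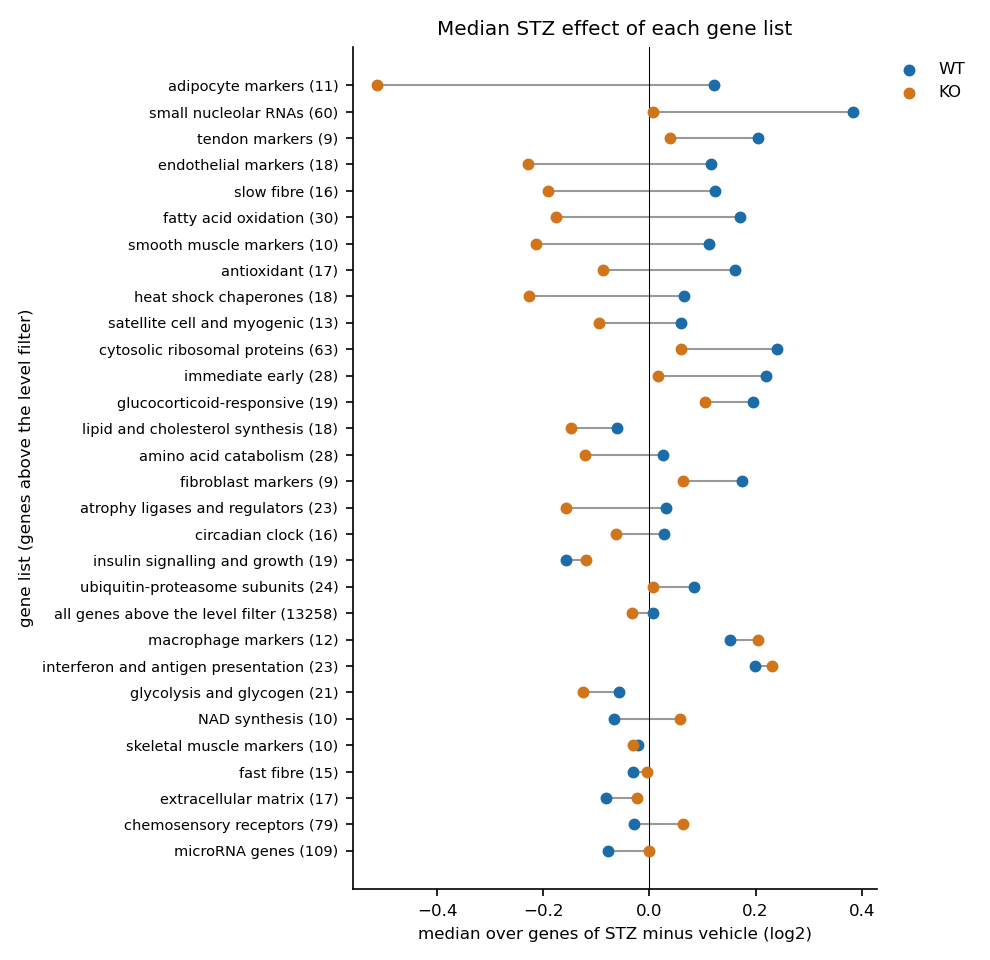
Median STZ effect in log2 units over the genes of each list above the level filter (their number in brackets), with WT and KO values joined by a line and lists ordered by their median difference. Adipocyte markers (0.12 in WT, -0.51 in KO) and small nucleolar RNAs (0.38 and 0.01) are widest apart; the median difference of 9 lists changed sign under at least 1 alternative.

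Small nucleolar RNAs, which guide chemical modification of ribosomal RNA and are mostly cut from introns of host genes, made up 13 of the 115 WT-only higher genes. These were 13 of 60 measured, against 0.867% of all genes. Above 0 in WT were 54 of the 60, against 51.5% of all genes. Their median was 0.38 in WT and 0.01 in KO. Snord58b had 30.2 and 89.8 in WT (vehicle, then STZ) and 32.9 and 23.9 in KO, and Snord1b had 54.6, 118, 70.6 and 66.1. In both genes WT STZ alone was high. The difference was 1.5-fold or more to the negative side in 24 of the 60 and to the positive side in 1, against 3.91% and 1.76% of all genes. Cytosolic ribosomal protein genes had a median of 0.24 in WT and 0.06 in KO over 63 measured, and the median difference of -0.20 was -0.06 after quantile normalization. Rps13, a protein of the small ribosomal subunit, had 52.3, 117, 60.4 and 44.6. Rps27, of the same subunit, went the other way with 25.4, 14.4, 18.5 and 21.8. Ribosomal protein genes have many pseudogene copies, so their single values are uncertain.

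Past the 2-fold threshold were 2 microRNA genes, and their mature sequences from RefSeq on GRCm38.p6 are shown to identify them, with the seed (bases 2 to 8) in capitals. They lie at chr5:98475616-98475636, minus strand, for miR-703, and chr12:109586085-109586107 and chr12:109586122-109586141, plus strand, for the arms of miR-540.
miR-703: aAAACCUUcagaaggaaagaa
miR-540-5p: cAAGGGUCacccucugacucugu
miR-540-3p: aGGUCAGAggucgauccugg
The 3 seeds differ from each other. The cluster of Mir703 had 61.5 and 109 in WT (vehicle, then STZ) and 53.0 and 35.4 in KO, with effects of 0.79 and -0.54. That of Mir540 had 15.7, 10.1, 8.48 and 14.0, with effects of -0.49 and 0.54. An array of this kind reads the primary or precursor transcript as well, so these values are not levels of the mature forms.

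The positive differences were led by dimmer genes. Rab3c, a small GTPase of secretory vesicles, had 23.4 and 17.2 in WT (vehicle, then STZ) and 15.5 and 36.3 in KO, with effects of -0.38 and 1.06 and a difference of 1.44. KO STZ alone was high. Zfp108, a zinc-finger gene, had 12.2, 6.65, 6.28 and 13.5, with effects of -0.62 and 0.78. WT vehicle and KO STZ were alike there, as were WT STZ and KO vehicle. Fut11, a fucosyltransferase of the Golgi, had 70.1, 42.4, 76.0 and 116, with effects of -0.68 and 0.59. Svop, a transporter-like vesicle protein, had 19.1, 13.9, 10.02 and 22.8. When all clusters of a gene were averaged the difference fell to 0.72 for Rab3c, 0.55 for Fut11 and 0.64 for Svop.

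WT-only lower genes with the largest differences were Gm4841, an interferon-inducible GTPase-like gene (156, 70.1, 50.6 and 58.2 in WT vehicle, WT STZ, KO vehicle and KO STZ), Dhrsx, a short-chain dehydrogenase (44.3, 19.6, 32.6 and 37.5), and Dnm1, a dynamin (27.2, 12.7, 15.7 and 18.5). WT vehicle was the high array in Gm4841, and its WT STZ level lay above both KO levels. In Dhrsx WT STZ was the low array. WT-only higher genes outside the lists included Oaz1, an inhibitor of polyamine synthesis (179, 367, 160.2 and 161), and Aspn, a small matrix proteoglycan (84.7, 153, 101 and 87.8), both high in WT STZ alone. Adm, the vasodilator peptide adrenomedullin (11.3, 25.5, 17.0 and 16.5), and Klf10, a Kruppel-like factor (41.3, 73.6, 30.9 and 29.5), were of the same class and were chosen after their values were seen.

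For each gene the array farthest from the median of the 4 was found, as a description of which array set a difference apart. The genes were chosen on the same 4 values, so nothing is supported by these counts. Among the 33 genes at or below -1 it was WT STZ in 19, KO STZ in 7, WT vehicle in 4 and KO vehicle in 3. Over all genes it was WT STZ in 29.9%, KO STZ in 27.3%, KO vehicle in 22.1% and WT vehicle in 20.8%. Among the 115 WT-only higher genes it was WT STZ in 89 and WT vehicle in 26, the KO arrays being near each other by the choice of the class, so that only a WT array could be farthest. Among the 18 genes at or above 1 it was WT vehicle, WT STZ and KO STZ in 5 each, and KO vehicle in 3.

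Many of the opposite responses began from vehicle levels that differed between the genotypes. Part of this is built in, since the class itself favours a low WT vehicle and a high KO vehicle, or the reverse. Of the 34 genes higher in WT and lower in KO, 20 were at least 1.2-fold higher in KO vehicle than in WT vehicle and 1 was as much lower, against 9.07% and 9.33% of all genes. In 21 of the 34 KO vehicle lay nearer to WT STZ than to WT vehicle, as for Nr4a3, against 42.8% of all genes. Of the 15 genes with the reverse pattern, 11 had KO vehicle 1.2-fold or more below WT vehicle and 0 had it as far above. A single vehicle array that strays enters the STZ effect of its genotype and the genotype difference alike, and with 1 array per group this cannot be told apart from a response.

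**Figure D4:**
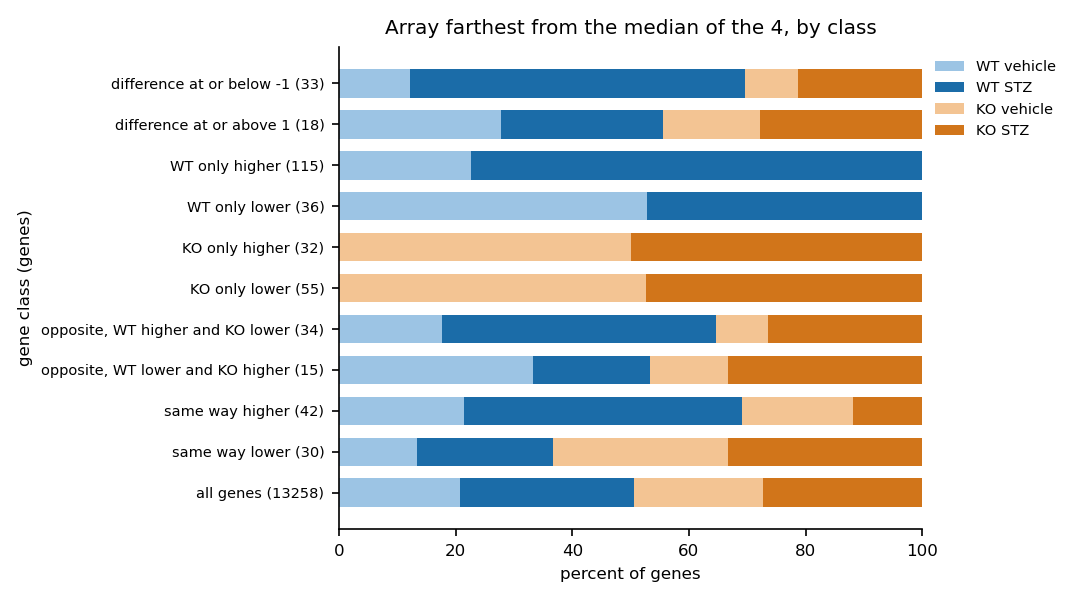
Share of genes (percent) for which each of the 4 arrays lay farthest from the median of the 4 in log2 intensity, by response class, with the number of genes in brackets and all 13258 genes at the bottom. WT STZ takes 19 of the 33 genes with a difference at or below -1 and 5 of the 18 at or above 1; in the WT-only and KO-only classes the other genotype's arrays cannot be farthest by construction.

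A second reading was at hand for some genes. Where a gene had further clusters above the level filter with values of their own, they were set beside the brightest one. For the 32 genes with a difference of 1.5-fold or more and such a cluster, 19 of 39 further clusters (48.7%) had the same sign, and 1 of 39 reached 1.5-fold the same way. Where the brightest cluster was negative, 7 of 19 further clusters (36.8%) had the same sign and 0 reached 1.5-fold. Where it was positive, 12 of 20 (60%) had the same sign and 1 reached 1.5-fold. For all genes 364 of 625 (58.2%) had the same sign. Of the genes at 2-fold, only Fut11 and Svop had another cluster above the level filter, at -0.17 and -0.04 for the difference, against 1.27 and 1.32 in the brightest. The further clusters are dimmer than the brightest by choice, and the labels do not say what each reads.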

How the data were processed

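The authors deposited a table of linear intensity values, 1 per transcript cluster and array; their background correction, probe summary and normalization are unknown here. Intensities were turned into log2(intensity + 3.69), the offset being percentile 25 of all values, so changes of dim genes are understated. Of 41345 clusters, 23521 carried 1 gene symbol, 1814 several and 16010 none in the annotation, and 23328 were matched to RefSeq. The brightest cluster stood for a gene, and genes with a mean log2 above the median of all clusters (intensity 5.81) were kept. Named genes were Klf15, the 12 largest differences each way, the 8 largest per class, up to 6 per list and 2 on each side of each threshold; Fos, Junb, Klf4, Fasn, Ppargc1a, Iigp1, Cdkn1a, Eci2, Adm and Klf10 were named after their values were seen. The 27 lists (467 genes, 422 kept), the classes and the members were chosen with earlier results of these data known; ribosomal, small nucleolar, chemosensory and microRNA genes were grouped by symbol. Alternatives were quantile normalization, a loess trend, 2 other offsets, 2 other filters and the mean of all clusters. Counting was tested on simulated data. Promoter windows were aligned with Biopython 1.88; the rest used Python 3.11.15, pandas 2.3.3, scipy 1.17.1 and statsmodels 0.14.6.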

Additional observations from a re-analysis of the deposited data

Results flagged for a closer look

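The STZ effect passed 1.5-fold in opposite directions in WT and KO for 4 genes, and with 1 array per group the difference between the genotypes was not tested. The difference, KO minus WT, was -1.84 for Nr4a3, -1.31 for Slc40a1, 1.27 for Fut11 and 1.41 for Zfp108. A second cluster of Fut11 gave -0.17. Zfp108 was near the level filter's intensity of 5.81 in WT STZ (6.65) and KO vehicle (6.28).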

How the results depend on the processing

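No paired analysis was possible because each group has 1 array and the labels give no replicate numbers. Of the 7 alternatives, 2 moved a count of a whole class by over 1.5 times. With the offset at the median, 46 genes responded in KO only (87 reported) and 30 in opposite directions (49). With the filter at percentile 75, the difference was at or above 1 in 6 genes (18) and at or below -1 in 21 (33), while 31 genes responded in KO only and 28 in opposite directions. This filter tests fewer genes, 7212 in place of 13258. After quantile normalization the WT-only higher genes numbered 73 (115 reported), and 103 of the 151 WT-only genes kept their class, and 27 of the 33 genes at or below -1 stayed there. Of 1341 values of single named genes, 7 moved by 0.26 or more, and 0 changed sign where the difference was 1.5-fold or more. The 7 came from averaging all clusters of a gene. Averaging can move only genes with more than 1 cluster, and most named genes had 1, so for those it was no check. The median difference changed sign in 9 of 28 lists, 8 of them under quantile normalization or loess, with main values between -0.13 and 0.01. Signal limits the dim genes: the difference at 1.5-fold or more was positive in 59 and negative in 51 genes of the dimmest of 4 equal groups.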

Other observations

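Values of 2 further gene groups are given here as a description. Chemosensory receptor genes, which serve smell and taste and are not known for a role in muscle, were above the level filter in 79 of 1432 cases. The filter uses the mean of the same 4 arrays, so a dim gene can pass it through a single high array. Of those 79, 12 had a difference of 1.5-fold or more, 9 positive and 3 negative, against 1.76% and 3.91% of all genes. MicroRNA genes had a difference of that size in 13 of 109 cases, 10 positive and 3 negative. The negative counts were near the share over all genes, and the median differences were 0.10 and 0.13.

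Clusters with no symbol or with several were left out of all comparisons. Of 6743 such clusters above the same level, 258 (3.83%) had a difference at or below -1 and 231 (3.43%) at or above 1, against 0.249% and 0.136% of genes.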
